A study of Mus musculus with 9 samples.

Results

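The genes described here are 253 symbols that the deposited list calls direct targets of Shox2 repression and that were close to unexpressed while Shox2 was present. The list holds 1352 distinct symbols without values, and the sources used here do not say how it was made. Of these, 1256 were the full name of exactly 1 row of the deposited expression table, and 96 were not. A gene was called silent if its mean over the 3 control columns was under 0.5 FPKM (a fragment level scaled to transcript length and library size), which left 253 genes and set aside 1003 listed genes at or above that limit. The genes were thus chosen by their measured control values, so the mutant levels below are a description and carry no test. The question was how many of them were switched on, taken as a mutant mean of 1 FPKM or more, and how many stayed silent, taken as a mutant mean under 0.5 FPKM.

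The cells were green fluorescent cells sorted from limbs of mouse embryos at E12.5. Controls had the genotype Shox2(Cre/+);Rosa(mTmG), with Cre recombinase at 1 Shox2 allele and an intact second allele. Mutants had the genotype Shox2(Cre/-);Rosa(mTmG), with a mutant second allele. Both groups therefore carried the Cre allele and the mTmG reporter, which turns from red to green in cells where Cre has been active and in their descendants, so that sorted cells are those with present or past activity of the Shox2 locus. The labels give 3 control and 4 mutant samples from 3 litters, and 2 whole limbs of wild-type embryos that were not analysed here. The table has 6 value columns, 1 per genotype and litter. Litter 1 has 2 mutant samples, and the sources used here do not say whether its mutant column is 1 of them or both. The number of embryos behind a column is not stated either.

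Shox2 is a homeodomain protein made in the proximal limb, where this transcription factor is known for its role in the growth of the upper limb bones and in the maturation of cartilage. Homeodomain proteins bind short DNA elements with a TAAT core. A gene that a repressor holds down may gain expression when the repressor is lost, provided that activators for that gene are present in the cell.

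The Shox2 level itself was 217, 222 and 210 FPKM in the controls of litters 1, 2 and 3. In the mutants it was 16.7, 18.3 and 96.9 FPKM, so the litter 3 mutant kept the most. All 10 limb mesenchyme markers on the marker list were above 0 in every column. Their summed level was 1084 to 1870 FPKM in controls and 783 to 1397 FPKM in mutants. Shox2 is itself 1 of these 10, so the mutant sums include its own lower level. Of the 10, 2 were higher in the mutants of 3 litters and 3, Shox2 among them, were lower. The litter 2 control stood apart in its zeros: 38.7% of all rows were at 0 there, against 26.2% to 30.7% in the other 5 columns. It also had 7 rows at 0 that were at 5 FPKM or more in every other column, so a value of 0 in that column may not mean absence. In bulk RNA, fewer cells of a type and less RNA per cell cannot be told apart.

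Almost none of the silent listed genes were switched on. A mutant mean of 1 FPKM or more was found for 3 of 253 genes, or 1.19%, namely Tyrobp, Wnt16 and Dmrta1. Among the 9929 rows outside the list that were equally silent in controls, 79 reached that level, a background of 0.796%. A further 23 listed genes had a mutant mean from 0.5 to under 1 FPKM, and 227 genes, or 89.7%, stayed under 0.5 FPKM. No listed gene was at 1 FPKM or more in all 3 mutant columns, beside a background of 0.0302% (3 of the 9929 unlisted rows). A mutant mean of at least 0.5 FPKM was thus found for 26 genes, or 10.3%, beside a background of 3.12%. Unlisted silent rows were more often at 0 in all 6 columns, with 4791 of 9929 against 47 of the 253 listed genes. Over rows above 0 in at least 1 column, the shares at 0.5 FPKM or more were 26 of 206 listed genes and a background of 6.03% of 5138 unlisted rows. Of the 79 unlisted rows that reached 1 FPKM, 45 were small RNA genes, a class with no listed gene here.

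**Figure D1:**
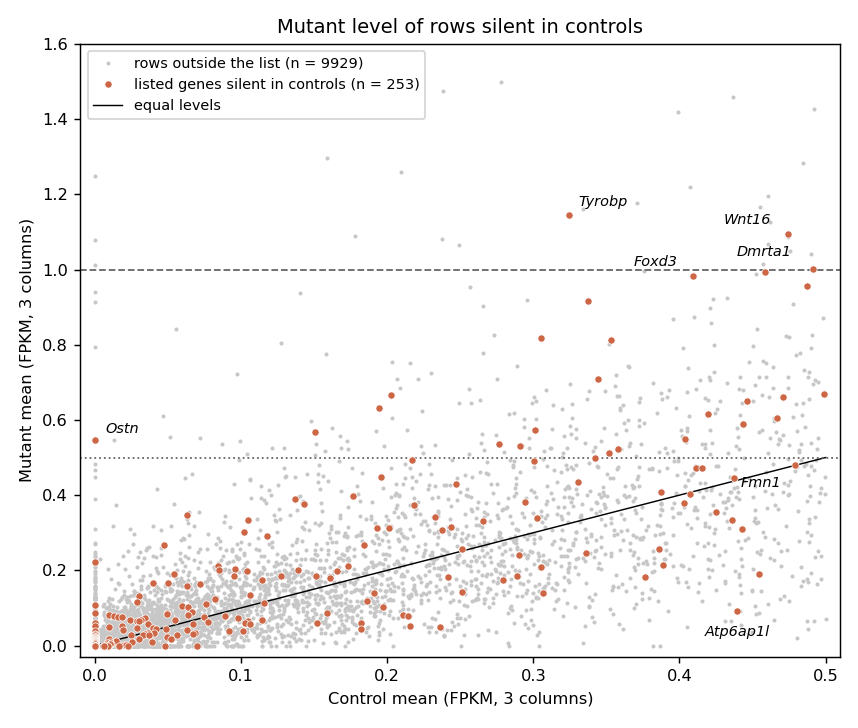
Each point is a row with a control mean under 0.5 FPKM, with its control mean on the horizontal axis and its mutant mean on the vertical axis, both in FPKM over 3 columns. Listed genes are orange and unlisted rows grey. The dotted and dashed lines mark mutant means of 0.5 and 1 FPKM, the black line marks equal levels, and 54 unlisted rows above 1.6 FPKM lie outside the plot. Of the 253 listed genes, 3 are on or above the dashed line and 227 are under the dotted one.

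The 3 genes at a mutant mean of 1 FPKM or more differed in how evenly the mutants shared the level. Wnt16, a secreted Wnt ligand known from bone and joints, was at 0.549, 0.290 and 0.584 FPKM in the controls of litters 1, 2 and 3 and at 0.866, 1.40 and 1.02 FPKM in the mutants. Every mutant was above every control, and the group means were 0.474 ± 0.161 and 1.09 ± 0.274 FPKM (SD, n = 3 columns each). Dmrta1, a transcription factor of the doublesex-related DM domain family, was at 0.578, 0.529 and 0.366 FPKM in controls and at 1.31, 0.731 and 0.961 FPKM in mutants. Its groups did not overlap either, and its means were 0.491 ± 0.111 and 1.00 ± 0.294 FPKM (SD, n = 3 each).

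Tyrobp, a signalling adaptor of myeloid and natural killer cells, was different. Its level was 0.433, 0 and 0.541 FPKM in controls and 0.575, 2.59 and 0.271 FPKM in mutants, so the litter 2 mutant alone carried its mean above 1 FPKM and litter 3 went the other way. Most other leukocyte markers were highest in the same column, but Laptm5 and Cd68 were not. Laptm5 was highest in the litter 2 control, at 3.83 FPKM, and Cd68 in the litter 3 control, at 4.71 FPKM. The 7 leukocyte markers other than Tyrobp summed to 21.3 FPKM in the litter 2 mutant and to between 10.4 and 15.6 FPKM in the other 5 columns, and Fcer1g and Cd52 were at 2.21 and 2.37 FPKM there. In the litter 2 control, Tyrobp, Ptprc, Fcer1g and Cd52 were all listed at 0, while Csf1r, Cd68 and Coro1a were at 1.18, 2.32 and 5.27 FPKM. The part of leukocytes in the Tyrobp value was not tested.

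The 250 bases upstream of the start of 4 of the higher genes are printed from RefSeq (GRCm38.p6), 5′ to 3′ on the gene's strand, as examples with and without a homeodomain core. Wnt16 and Dmrta1 are the genes with a mutant mean of 1 FPKM or more that have an entry. Foxd3 and Adarb2 were picked because their windows hold the homeodomain core, so the 4 windows do not show how common it is. Capitals mark every TAAT or its reverse complement ATTA, with both strands searched and overlapping matches merged. The windows are chr6:22287977-22288226, chr4:89687948-89688197, chr4:99656049-99656298 and chr13:8202616-8202865 for Wnt16, Dmrta1, Foxd3 and Adarb2, all on the plus strand.
Wnt16: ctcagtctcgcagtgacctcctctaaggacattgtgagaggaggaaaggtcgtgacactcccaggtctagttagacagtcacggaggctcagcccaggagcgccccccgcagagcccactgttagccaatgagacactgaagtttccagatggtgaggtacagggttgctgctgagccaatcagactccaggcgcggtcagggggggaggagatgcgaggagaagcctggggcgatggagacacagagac
Dmrta1: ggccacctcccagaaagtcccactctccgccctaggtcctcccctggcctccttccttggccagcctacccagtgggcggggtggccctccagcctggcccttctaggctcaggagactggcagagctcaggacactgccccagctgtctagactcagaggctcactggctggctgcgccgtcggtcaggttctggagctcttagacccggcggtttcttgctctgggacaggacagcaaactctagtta
Foxd3: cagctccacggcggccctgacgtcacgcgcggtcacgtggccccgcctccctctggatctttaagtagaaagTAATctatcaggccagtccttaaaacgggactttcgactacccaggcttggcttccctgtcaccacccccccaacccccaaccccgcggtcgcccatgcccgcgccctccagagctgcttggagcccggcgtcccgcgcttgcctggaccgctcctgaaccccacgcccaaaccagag
Adarb2: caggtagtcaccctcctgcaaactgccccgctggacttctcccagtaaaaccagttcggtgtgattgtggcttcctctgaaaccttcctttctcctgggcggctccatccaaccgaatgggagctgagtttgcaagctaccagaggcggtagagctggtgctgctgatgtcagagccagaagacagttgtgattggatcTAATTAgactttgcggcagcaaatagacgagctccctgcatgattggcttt
The Wnt16 and Dmrta1 windows hold neither TAAT nor ATTA. The Foxd3 window holds TAAT once, and the Adarb2 window holds TAATTA, in which both cores overlap. Among all 27025 such windows in the table, 55.3% hold TAAT or ATTA and 4.90% hold TAATTA. A match describes the letters only. Because just 174 of the 253 genes, or 68.8%, have an entry, a comparison of these windows over the whole group is void and none is given.

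Of the 23 genes between 0.5 and 1 FPKM, some were higher in the mutant of every litter. Foxd3, a forkhead factor of neural crest and its glial descendants, was at 0.450, 0.679 and 0.0980 FPKM in controls and at 1.10, 1.43 and 0.418 FPKM in mutants. It was higher in 3 of 3 litters, but the litter 3 mutant was under 2 of the controls. Adarb2, a brain-enriched relative of the RNA-editing adenosine deaminases, was at 0.292, 0.278 and 0.442 FPKM in controls and at 1.11, 0.878 and 0.758 FPKM in mutants, without overlap. Nerve and glia markers were present in every column and did not move in 1 direction: without Foxd3, which is on the marker list itself, the sum of the other 15 was 99.98, 151 and 90.8 FPKM in the controls and 157, 114 and 103 FPKM in the mutants. Of these 15, 3 were higher in the mutants of 3 litters and 1 was lower, and Sox10, a glial and neural crest factor, was at 1.06, 3.62 and 1.76 FPKM in controls and 1.65, 3.65 and 2.26 FPKM in mutants. Their part in the Foxd3 and Adarb2 values was not tested.

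St8sia6, a sialyltransferase that adds sialic acid to glycans, was at 0.391, 0.0620 and 0.922 FPKM in controls and 0.774, 1.23 and 0.976 FPKM in mutants, so the litter 3 control exceeded the litter 1 mutant. Stk33, a serine/threonine kinase, was at 0.828, 0.181 and 0.452 FPKM in controls and 0.858, 1.14 and 0.872 FPKM in mutants. Its groups did not overlap, although litter 1 differed by little. Slc2a12, a glucose transporter, was at 0.623, 0.245 and 0.192 FPKM in controls and 0.813, 0.745 and 0.883 FPKM in mutants, also without overlap.

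For 10 of the 26 genes the litter 2 control was at 0. Among them, Vnn1, a pantetheinase at the cell surface, was at 0.411, 0 and 0.505 FPKM in controls and 0.753, 0.932 and 0.772 FPKM in mutants. Prima1, the membrane anchor of acetylcholinesterase in nerve tissue, was at 0.445, 0 and 0.588 FPKM in controls and 0.708, 0.821 and 0.594 FPKM in mutants. Its litter 3 values were nearly equal. Aldh1a7, an aldehyde dehydrogenase, was at 0.171, 0 and 0.437 FPKM in controls and 0.690, 0.694 and 0.613 FPKM in mutants. Of the 26 genes, 15 were higher in the mutant of every litter.

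**Figure D2:**
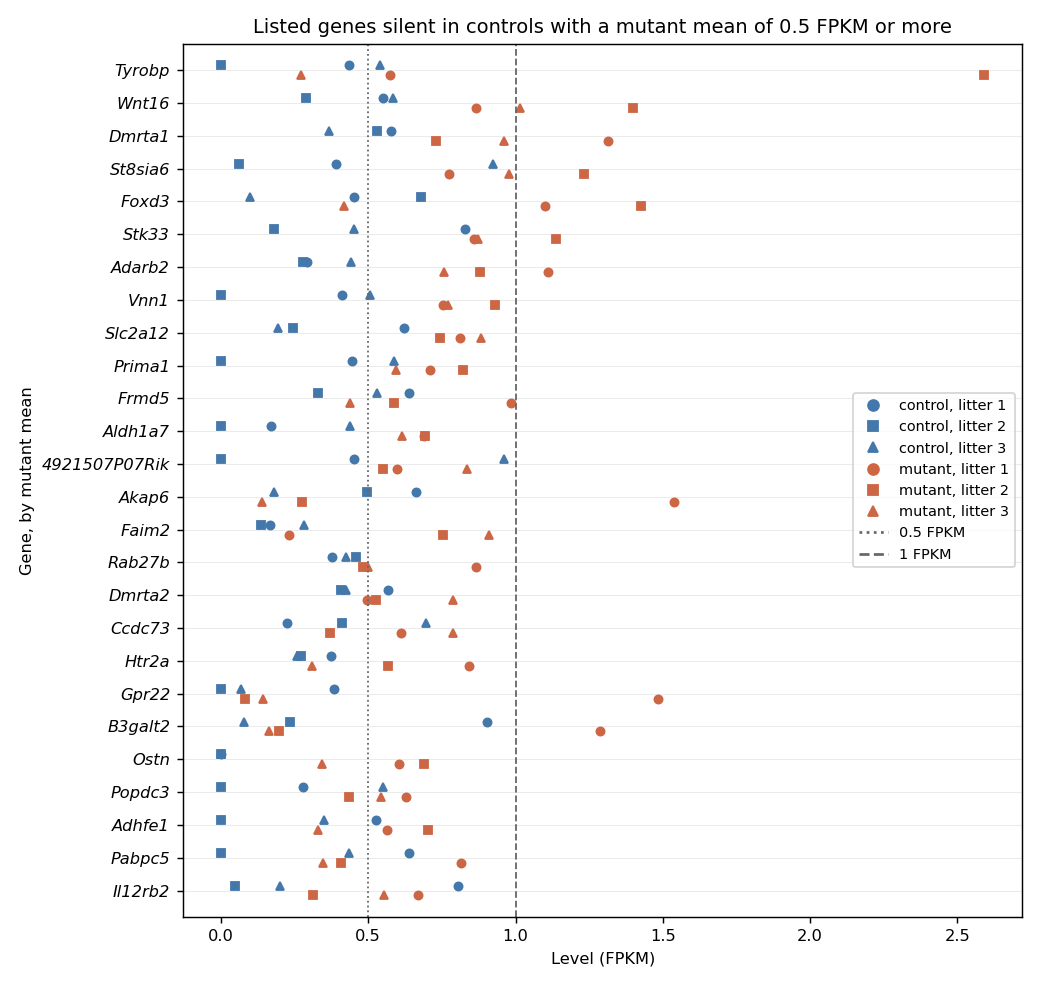
The horizontal axis is the level in FPKM, and each row is 1 of the 26 genes with a mutant mean of 0.5 FPKM or more, from the highest mean (Tyrobp) down. Blue points are controls and orange points mutants, with circles, squares and triangles for litters 1, 2 and 3, and the lines mark 0.5 and 1 FPKM. Tyrobp has 1 mutant point at 2.59 FPKM far from the others, and Akap6, Gpr22 and B3galt2 are above 1 FPKM in the litter 1 mutant only.

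Another 4 genes were at 1 FPKM or more in the litter 1 mutant and under 0.5 FPKM in the other mutants. Akap6, which anchors protein kinase A in muscle and neurons, was at 1.54 FPKM there and at 0.275 and 0.138 FPKM in the mutants of litters 2 and 3, against 0.662, 0.497 and 0.181 FPKM in the controls. Gpr22, an orphan G protein-coupled receptor of brain and heart, was at 1.48 FPKM in that column and at 0.0801 and 0.144 FPKM in the other mutants. B3galt2, a galactosyltransferase, was at 1.29 FPKM against 0.195 and 0.162 FPKM, but its litter 1 control was already at 0.902 FPKM. Svop, a synaptic vesicle protein, was at 1.01 FPKM against 0.340 and 0.0636 FPKM. The nerve markers Snap25, Syt1 and Nefl were also highest in the litter 1 mutant, at 2.71, 2.79 and 24.3 FPKM, and the summed nerve and glia markers other than Foxd3 were highest there, at 157 FPKM. The part of nerve tissue in these values was not tested.

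In all, 11 genes reached 1 FPKM in at least 1 mutant column, or 4.35%, beside a background of 1.84%. For 9 of them this was 1 column only, and for Wnt16 and Foxd3 it was 2. In the controls, 2 genes reached 1 FPKM in a single column: Phxr4 at 1.16 FPKM in litter 1, and Tcf21, a basic helix-loop-helix factor of mesenchyme, at 1.17 FPKM in litter 2. The litter 1 mutant held 7 genes at 1 FPKM or more, the litter 2 mutant 5 and the litter 3 mutant 1, against 1, 1 and 0 in the controls. Among the 9929 unlisted silent rows the mutant counts were 68, 52 and 85, with the most in litter 3, against 5, 37 and 14 in the controls. In both sets the limit on the control mean keeps the control columns low. More mutant than control values at 1 FPKM therefore follow in part from the rule. The summed level of the 253 genes was 35.8, 24.4 and 30.3 FPKM in controls and 50.2, 43.4 and 35.1 FPKM in mutants, so the litter 3 columns were also the closest to each other. The control sums are held down by the same limit, so the higher mutant sums are not read as a rise of the group.

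Zeros were spread unevenly over the columns. Of the 253 genes, 104, 173 and 101 were at 0 in the controls of litters 1, 2 and 3, and 67, 95 and 92 in the mutants. The litter 2 control, which had the most zeros over all rows too, stood apart.

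**Figure D3:**
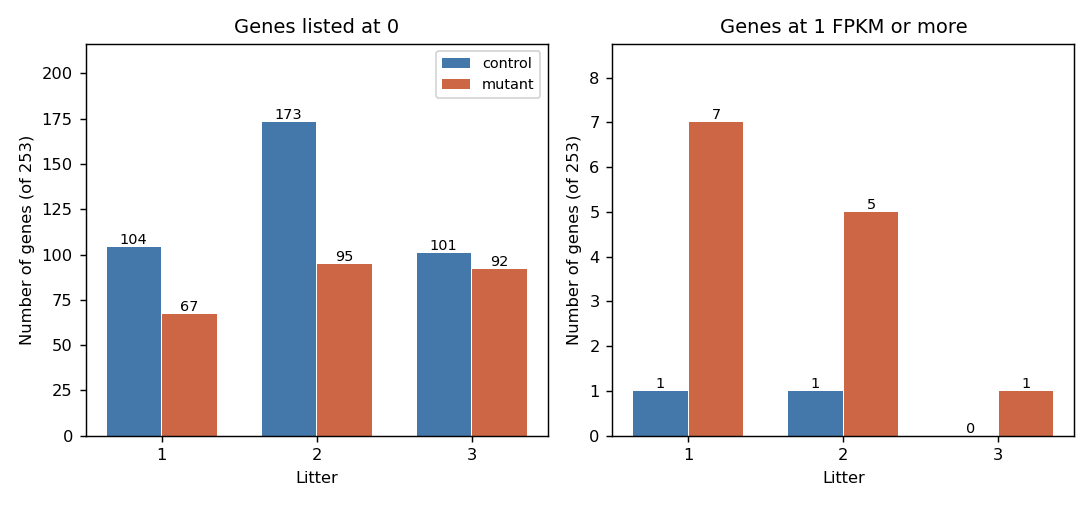
Bars give the number of the 253 listed genes, by litter on the horizontal axis, with controls in blue and mutants in orange. The left panel counts genes listed at 0 (173 in the litter 2 control) and the right panel genes at 1 FPKM or more (7, 5 and 1 in the mutants of litters 1, 2 and 3).

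Direction was counted over the 206 genes above 0 somewhere. For 49 genes the mutant was the higher column in 3 of 3 litters, and for 5 genes the lower one, or 23.8% and 2.43%, beside a background of 13.1% higher and 4.52% lower among unlisted silent rows above 0. The 5 lower genes were Oit3, Armc4, Lrp2, Col28a1 and Ppp1r3a. For 24 genes, or 11.7%, every mutant exceeded every control, beside a background of 6.13%. In 16 of these 24 the litter 2 control was at 0, and 14 of the 24 had a mutant mean under 0.5 FPKM, so most of them stayed in the silent class. With the litter 2 pair left out, 43 of the 206 genes and 13.2% of the unlisted rows had both mutants above both controls. By litter, the mutant was higher for 130, 116 and 100 of the 206 genes in litters 1, 2 and 3, and lower for 62, 45 and 75. The share of genes higher in the mutant was 63.1%, 56.3% and 48.5%, and among unlisted rows it decreased in the same order, at 56.1%, 51.6% and 37.2%.

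Genes at 0 in every control came closest to a change from off to on, but at low levels. There were 6 at 0 in all controls and above 0 in all mutants, or 2.37%, against 0.604% of the unlisted silent rows. Ostn, which encodes the secreted peptide osteocrin of bone and muscle, was at 0.605, 0.688 and 0.344 FPKM in the mutants and had the highest level of the 6. Cacng3, an auxiliary subunit of AMPA-type glutamate receptors, was at 0.208, 0.186 and 0.269 FPKM. The odorant receptor Olfr267 was at 0.105, 0.133 and 0.0830 FPKM. Mutant levels were lower still for 3 kidney genes: Cldn16, a tight junction protein, had a mean of 0.0594 FPKM, Aqp2, a water channel, 0.0532 FPKM, and Slc5a2, a renal glucose transporter, 0.0300 FPKM. No fold is given against controls at 0. In all, 31 genes (12.3%) were at 0 in every control and above 0 in at least 1 mutant, against 10.1% of unlisted silent rows. Over rows above 0 somewhere these shares were 15.0% and 19.5%. In the other direction, 9 genes (3.56%) were at 0 in all mutants and above 0 in some control, against 2.64% of unlisted silent rows.

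How high a gene stood in the mutants followed how near it was to the limit in controls. Of 78 genes at 0 in all controls, 1 had a mutant mean of 0.5 FPKM or more, and of 78 genes above 0 and up to 0.1 FPKM none did. Of 46 genes from 0.1 to 0.25 FPKM, 3 did, and of 51 genes from 0.25 FPKM to the limit, 22 did. From the lowest range to the highest, the listed shares were 1.28%, 0%, 6.52% and 43.1%, and the shares of unlisted rows were 0.880%, 0.405%, 4.17% and 23.0%. The 3 genes at 1 FPKM or more were all in the highest range. The 5 genes just inside the limit were Frmd5, Dmrta1, Stk33, Fmn1 and Wnt16, with control means from 0.474 to 0.499 FPKM, and listed genes just outside were Ccna1, Pdk4, Serpinc1 and 1700026D08Rik, from 0.501 to 0.504 FPKM. Mutant means were 0.479 to 1.09 FPKM inside and 0.131 to 0.766 FPKM outside. Fmn1, a formin known for limb deformity alleles, had the same mean of 0.479 FPKM in both groups.

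The largest drops in mean were small in FPKM, and control and mutant columns overlapped. Atp6ap1l went from a control mean of 0.439 to a mutant mean of 0.0918 FPKM, with controls at 0.0512, 0.903 and 0.364 FPKM and mutants at 0.0788, 0.0417 and 0.155 FPKM. Amtn, an enamel protein gene, went from 0.454 to 0.191 FPKM, Tmem40 from 0.377 to 0.182 FPKM, Kcne2, a potassium channel subunit, from 0.236 to 0.0501 FPKM, and Tcf21 from 0.388 to 0.214 FPKM. The same count was made with the groups exchanged. By that rule 235 listed genes had a mutant mean under 0.5 FPKM, and none of them had a control mean of 1 FPKM or more, while 8 (3.40%) had a control mean of 0.5 FPKM or more, against 3.58% of unlisted rows. The highest was Col17a1, at 0.859 FPKM in controls and 0.378 FPKM in mutants. Outside the list, 94 of 9976 rows were at 1 FPKM or more in controls when the groups were exchanged.

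By the tissue each gene is known for, 108 of the 253 genes were placed in a group, and 10 of these were skeleton and limb genes. The groups were made after names or values were seen. All 15 genes of liver and plasma proteins stayed silent, among them Cyp7a1, the rate-limiting enzyme of bile acid synthesis, listed at 0 in all 6 columns, and Cps1, a urea cycle enzyme, with means of 0.115 FPKM in controls and 0.114 FPKM in mutants. Ttr, the thyroid hormone carrier of plasma, had the highest mutant mean of that group at 0.330 FPKM, from 0.870 FPKM in the litter 1 mutant. All 6 kidney, 11 germ cell, 7 retina and inner ear, 12 chemosensory receptor and 2 enamel genes stayed silent too. Since 89.7% of all 253 genes and 96.9% of unlisted silent rows stayed silent, small groups without a higher gene do not set these tissues apart. Of the 12 chemosensory receptors, 10 were at 0 in every column.

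Among 9 striated muscle genes, Popdc3 alone had a mutant mean of 0.5 FPKM or more, at 0.535 FPKM, and Neb, which encodes the giant thin filament protein nebulin, was at 0.238 and 0.307 FPKM in controls and mutants. Muscle markers were above 0 in every column and summed to 29.9 to 80.3 FPKM in controls and 50.4 to 72.4 FPKM in mutants. Of these 10 markers, 4 were higher in the mutants of 3 litters and 0 were lower. The part of muscle in the Popdc3 and Neb values was not tested. Among 16 leukocyte and inflammation genes, Tyrobp was on. Il12rb2, an interleukin receptor subunit, had a mutant mean of 0.511 FPKM, but its highest column was the litter 1 control, at 0.805 FPKM. Selplg, a selectin ligand of leukocytes, was at 0.712 FPKM in the litter 2 mutant and at 0.110 FPKM or less elsewhere. Cxcl2, a neutrophil chemokine, was at 0.799 FPKM in that column, the same one in which Tyrobp and most leukocyte markers were highest. Other genes of the group, such as Il12rb2, were highest elsewhere. Gpr183 was at 0.838 FPKM in the litter 1 control and at 0.0496 FPKM in the litter 2 mutant.

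The 20 neuron and neural crest genes included none at 1 FPKM or more on average and 5 from 0.5 to 1 FPKM: Foxd3, Adarb2, Prima1, Faim2 and Htr2a. Faim2, an inhibitor of cell death in neurons, was at 0.165, 0.137 and 0.282 FPKM in controls and 0.232, 0.752 and 0.908 FPKM in mutants. Htr2a, a serotonin receptor, was at 0.373, 0.273 and 0.258 FPKM in controls and 0.841, 0.568 and 0.310 FPKM in mutants. In this group, which was put together after values were seen, 11 of 20 genes were higher in 3 of 3 litters and 5 did not overlap. Over the 206 listed genes above 0 somewhere these shares were 23.8% and 11.7%, and over the unlisted rows above 0 they were 13.1% and 6.13%. Drd3, a dopamine receptor counted among the 20, was at 0 in every column, and such genes are left out of those shares. Because the group was chosen with values known, its higher counts are not read as a result.

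Among 10 skeleton and limb genes, Wnt16 was on, Ostn was between the limits, and 8 stayed silent. Col10a1, the collagen of hypertrophic cartilage, was at 0.157, 0 and 0.136 FPKM in controls and 0.110, 0.0508 and 0.0614 FPKM in mutants. The 7 hypertrophic and osteoblast markers other than Col10a1 summed to 19.1 to 39.1 FPKM in controls and 6.37 to 17.7 FPKM in mutants, without overlap. Sfrp5, a secreted Wnt antagonist, had means of 0.336 and 0.246 FPKM, and Wisp3, a matricellular protein, 0.219 and 0.373 FPKM.

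**Figure D4:**
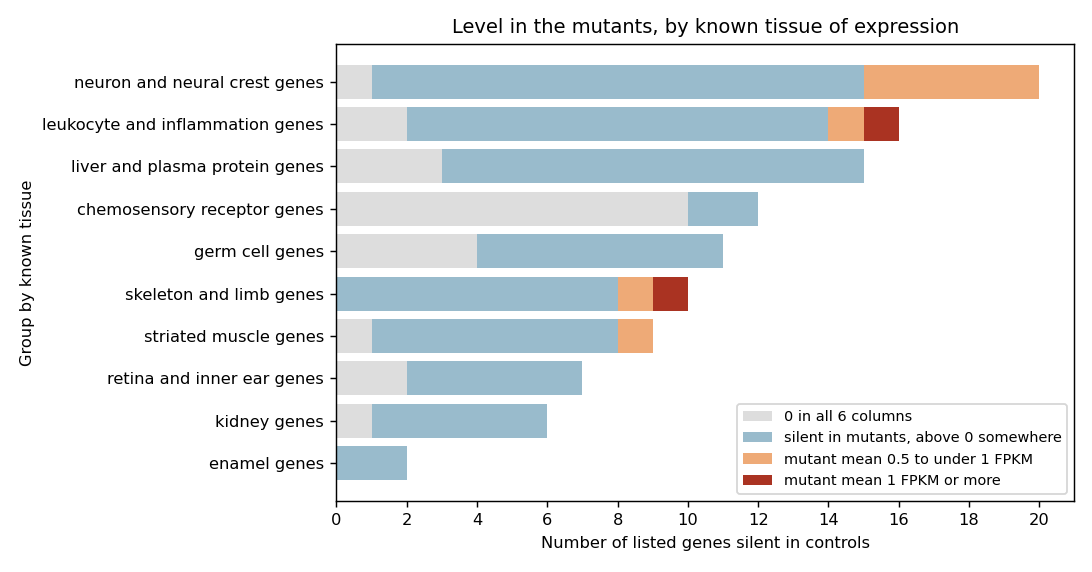
Bars give the number of silent listed genes in each known-tissue group, split by level in the mutants: 0 in all 6 columns (grey), silent but above 0 somewhere (blue), a mean from 0.5 to under 1 FPKM (light orange) and a mean of 1 FPKM or more (dark red). Dark red appears for 1 leukocyte gene (Tyrobp) and 1 limb gene (Wnt16), and the liver, kidney, germ cell, retina, chemosensory and enamel groups are silent throughout. The groups were made after names or values were seen, and 89.7% of all 253 genes stayed silent.

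By protein family, all 3 homeobox genes (Pou5f2, Cdx4 and Nobox) stayed silent, with a highest mutant mean of 0.0608 FPKM. Of the unlisted silent homeobox genes, 9.78% had a mutant mean of 0.5 FPKM or more. Of 7 other lineage transcription factors, Dmrta1 was on, and Foxd3 and Dmrta2, the latter a close relative of Dmrta1, were between the limits. Dmrta2 was at 0.567, 0.409 and 0.424 FPKM in controls and 0.497, 0.526 and 0.789 FPKM in mutants, with overlap. All 10 ion channel genes stayed silent, with Kcnh1 highest at a mutant mean of 0.429 FPKM, and 4.72% of unlisted silent ion channels passed 0.5 FPKM. Of 16 solute carriers Slc2a12 alone passed 0.5 FPKM, and of 11 peptide and hormone receptors Htr2a and Gpr22 did. The unlisted shares were 3.31% for solute carriers and 3.33% for peptides, hormones and their receptors. Wnt16 was on and Sfrp5 silent in the signalling family, where the unlisted share was 6.67%. The 3 matrix, 4 epidermal and 12 chemosensory genes were silent, with unlisted shares of 6.25%, 0.602% and 0%. Among 7 cytochrome and conjugating enzymes Aldh1a7 alone passed 0.5 FPKM, and among 23 unnamed transcripts 1 did, with unlisted shares of 1.31% and 2.17%. For the other lineage transcription factors the unlisted share was 2.63%.

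The silent listed genes lay next to other listed genes. In the GRCm38.p6 gene order, 240 of the 253 could be placed, and for 212 of them, or 88.3%, an adjacent protein-coding gene was also on the list. The share was 839 of 966 (86.9%) for listed genes that were not silent and 663 of 10984 (6.04%) for unlisted genes that were not silent. Among genes with a mutant mean of 0.5 FPKM or more it was 23 of 26, and among genes that stayed silent 189 of 214. For 55 of the 240 a neighbour was itself a silent listed gene, and for 166 it was a listed gene that was expressed in controls. The longest run of silent listed genes was 5 odorant receptors, Olfr1026, Olfr1028, Olfr1029, Olfr1030 and Olfr1031. Runs of 3 were Aldh1a1, Aldh1a7 and Tmc1, and Cox8c, Unc79 and Prima1. The part of the list's construction in this pattern was not tested.

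**Figure D5:**
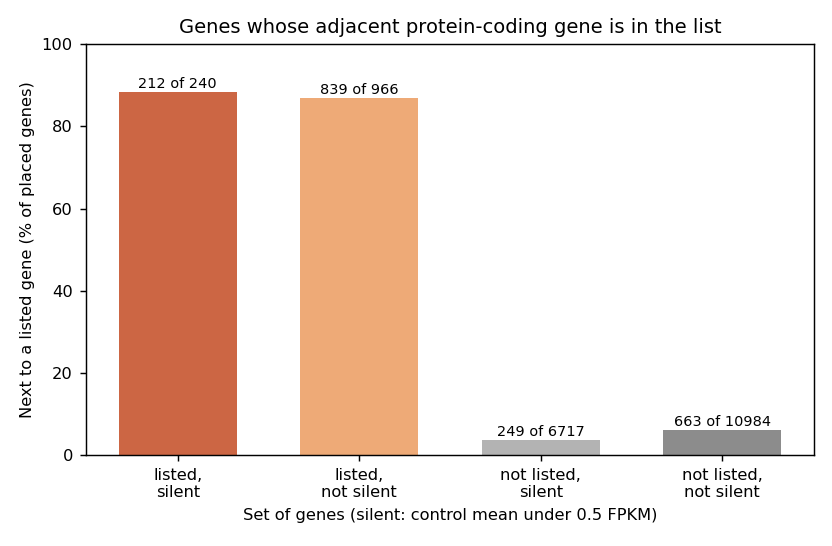
Bars give the percentage of placed genes whose adjacent protein-coding gene is on the deposited list, for listed and unlisted genes that were silent or not silent in controls (control mean under 0.5 FPKM or not), with counts above. The shares are 88.3% and 86.9% for listed genes and 6.04% for unlisted genes that were not silent. The unlisted silent bar rests on 6717 of 9929 rows and is not read.

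Listed neighbours that were expressed in controls were often higher in the mutants. Among the 179 listed genes that neighbour a silent one and were not silent themselves, 85, or 47.5%, were higher in the mutants of 3 litters, against 260 of 787 (33.0%) for other listed genes that were not silent and a background of 13.7% of 10984 unlisted ones. These neighbours are on the list as well, so their direction is not independent of it. Beside Stk33 lies Lmo1, a LIM-only transcriptional cofactor, at 9.85, 13.1 and 10.5 FPKM in controls and 22.2, 25.4 and 32.6 FPKM in mutants, without overlap. Beside Wnt16 lies Cped1, at 27.9 ± 6.21 FPKM in controls and 37.0 ± 6.18 FPKM in mutants (SD, n = 3), which was higher in each litter. Beside St8sia6 lies Vim, the mesenchymal intermediate filament vimentin, at 375 ± 42.2 and 423 ± 56.1 FPKM (SD, n = 3). Lrfn3 beside Tyrobp was at 10.7 FPKM in controls and 9.24 FPKM in mutants, and Wdr37 beside Adarb2 at 14.9 and 14.8 FPKM.

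For 5 of the 26 genes (19.2%) with a mutant mean of 0.5 FPKM or more the annotation shows an overlap with a more highly expressed gene. An overlap with any gene was annotated for 8.88% of the placed listed genes that stayed silent. Among genes not silent in controls, the share was 12.6% for listed and 20.3% for unlisted ones. Slc2a12 overlaps Tbpl1, Ccdc73 overlaps Eif3m, Gpr22 overlaps Cog5, B3galt2 overlaps Cdc73, and Il12rb2 overlaps Serbp1. Cog5 was at 16.4 FPKM in controls and 17.1 FPKM in mutants, and Cdc73 at 11.3 and 14.5 FPKM. The sources used here do not say whether the counting used strand, so reads of such pairs cannot be told apart.

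Over the whole table, limma on log2(FPKM + 1) called 0% of 12314 rows at an adjusted p under 0.05, with a lowest adjusted p of 0.247. Of these rows 439 had an unadjusted p under 0.05. This fit left litter out, although the columns are paired by litter. With litter as a block limma also called 0 rows, but 1433 had an unadjusted p under 0.05 and the lowest adjusted p was 0.0643. None of the 253 genes entered either fit, because none reached 1 FPKM in 3 columns. Nothing says that the columns come from separate animals, so any p-value here measures only the spread between these columns.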

How the data were processed

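RNA was sequenced from GFP-positive cells sorted from limbs of E12.5 mouse embryos. The authors used TopHat and Cuffdiff with the mm9 build, per the submitters' processing notes. The sources used here give no versions, annotation or filters. The deposited values are read as FPKM, since per the file headers Cuffdiff scaled them by its geometric method, for each litter separately. Levels set across litters may therefore rest on separate scalings. Depth is unknown, so no counting error can be given.

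A gene was a member if its symbol in the deposited list was the whole name of exactly 1 row and its control mean was under 0.5 FPKM. Rows naming several genes, and the 480 rows that share a name, were left out. The members, families and marker lists were chosen with earlier results of these data known. The known-tissue groups, the printed promoters and the genes named outside the family, limit and largest-drop rules were chosen after names or values were seen. The planned rule for promoters needed 1 FPKM or more in every mutant column and found none. The naming rule took all genes at a mutant mean of 1 FPKM or more, up to 3 per family or marker list with the highest mutant mean, up to 5 on each side of the limit, and the 5 largest drops. One item near the limit is not reported here.

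For the whole table, a limma fit (version 3.58.1, R 4.3.3) with its trend option compared the genotypes on log2(FPKM + 1). A row entered if 3 or more of the 6 columns reached 1 FPKM. The threshold was a Benjamini-Hochberg adjusted p of 0.05. The fit was run on simulated data with a smaller spread than these columns have and no litter effect. That run therefore does not show what size of change the fit could find here. The plan assumed 4 mutant samples, and the table has 3 mutant columns. The litter numbers of the labels pair the columns. Deviations from the group means correlated within litters at 0.87, 0.57 and 0.77 across genes. Fits with litter as a replicate block, other filters, pseudocounts, scalings, limits and left-out columns were the alternatives.

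Adjacent genes and promoters came from RefSeq tables of GRCm38.p6, used for gene order, names and sequence. The files' own build is mm9, and no coordinate was carried between builds.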

Additional observations from a re-analysis of the deposited data

How the results depend on the processing

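The count of genes switched on depended on the limits. It was 3 as reported and 0 with a control mean under 0.25 FPKM, 0 with every control column under 0.5 FPKM, 0 at 1 FPKM in every mutant column, 0 at a mutant mean of 2 FPKM and 26 at a mutant mean of 0.5 FPKM. Leaving out 1 column at a time gave 1 to 7. It was 7 without the litter 1 control, which brought AI429214, Cdh9, Cxcl1 and Dsc3 under the limit, 5 without the litter 3 mutant, and 1 (Dmrta1) without the litter 2 mutant. Without the litter 2 pair, an alternative chosen after seeing the data, it was 3, with Cntnap2 and Slc17a6 in place of Tyrobp and Wnt16. The count that stayed silent was 191 to 242 under its 14 alternatives, within 1.5 times of 227. With litter as a replicate block limma called 0 rows, 1433 of them at an unadjusted p under 0.05, and the lowest adjusted p was 0.0643. Other filters, pseudocounts and scalings also gave 0, and leaving out 1 column gave 0 to 1 (1 without the litter 3 control and 1 without the litter 3 mutant). Without depth, a level of a few hundredths of an FPKM cannot be told from a handful of reads.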

Other observations

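Outside the list, 3 of the 9929 rows silent in controls, or 0.0302%, were at 1 FPKM or more in every mutant. At so low a share, 0 of 253 listed genes does not set the list apart. These 3 rows were chosen after their values were seen. Glra2, a glycine receptor subunit, was at 0.242, 0 and 0.149 FPKM in the controls of litters 1, 2 and 3 and at 3.45, 2.83 and 1.37 FPKM in the mutants. Cartpt, a neuropeptide precursor, was at 0.504, 0.224 and 0 FPKM in controls and 4.15, 1.73 and 1.13 FPKM in mutants. Sst, the peptide hormone somatostatin, was at 0.456, 0 and 0.418 FPKM in controls and 2.38, 1.01 and 2.17 FPKM in mutants. All 3 are known from neurons, and the nerve and glia markers other than Foxd3 overlapped between the groups, with sums of 90.8 to 151 FPKM in controls and 103 to 157 FPKM in mutants. The part of nerve tissue in these values was not tested.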
